A study of Mus musculus with 35 samples.

Results

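Leptin mRNA (Lep) was followed across all 10 groups of a mouse perigonadal fat series, through both probe sets that the array's annotation assigns to that gene alone, 98443_at and 98444_g_at. They are 2 of 12422 probe sets tested, which carry 8251 gene symbols. They were taken by annotation and not by signal, but the gene was chosen with earlier results of these data known. RNA of 35 samples was hybridised to Affymetrix MG-U74Av2 arrays, 1 array a sample. Every mouse was on the C57BL/6J strain, 22 weeks old and fed freely.

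The male groups were ob/ob (4 arrays), wild type with diet-induced obesity and pioglitazone (4), wild type with diet-induced obesity and no drug (3), and lean wild type (4). The female groups were ob/ob with CL316243 (2 arrays), ob/ob with pioglitazone (3), untreated ob/ob (4), Ay/+ with pioglitazone (3), untreated Ay/+ (4) and lean wild type (4). Pioglitazone, which activates PPAR gamma, a nuclear receptor of fat cells, was given at 10 mg/kg/day for 2 weeks. The label of replicate 3 of the treated Ay/+ females names the drug without a dose. CL316243, an agonist of the beta-3 adrenergic receptor, was given at 3 mg/kg/day for 2 weeks. The labels do not say whether a sample was 1 animal or a pool, so p-values measure the spread between these samples.

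Leptin is a hormone that white fat cells secrete. It acts on its receptor Lepr in the hypothalamus to restrain feeding, and its mRNA in fat is known to rise with fat mass, insulin and glucocorticoids. Catecholamines acting through beta adrenergic receptors are known to lower leptin mRNA in normal mouse fat. The ob allele is a nonsense mutation of Lep itself: ob/ob mice make the transcript but no working hormone, so these probe sets do not check the ob/ob label. Ay/+ mice make the agouti protein in nearly all tissues, which blocks melanocortin receptors in the brain, and their own Lep gene is normal. Perigonadal fat is a mixture of cells, and in such bulk tissue fewer fat cells and less RNA per fat cell cannot be told apart.

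The 250 bases upstream of the annotated Lep start are shown because the C/EBP palindrome and the TATA box in them belong to the regulation of the gene, whose candidate regulators are described further on. RefSeq places them on the plus strand of GRCm38.p6 at chr6:29059971-29060220, directly before the gene at chr6:29060221-29073876. Capitals mark the GC box GGGCGG at position -98, the C/EBP palindrome TTGCGCAA at -55 and the run TTATAA at -32, counted back from the start.
Lep promoter: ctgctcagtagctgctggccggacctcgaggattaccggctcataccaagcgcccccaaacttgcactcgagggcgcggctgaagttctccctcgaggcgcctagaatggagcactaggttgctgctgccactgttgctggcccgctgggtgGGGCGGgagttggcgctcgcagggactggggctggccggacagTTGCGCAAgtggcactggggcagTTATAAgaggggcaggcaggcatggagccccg
Both strands were searched. TTATAA holds TATAA on each strand, at -31 and -32, overlapping. Of 32851 mouse promoters of the same length, 22.8% held TATAA, 32.7% held GGGCGG and 0.164% held TTGCGCAA. CACGTG and AGGTCA, searched likewise, were not in this window and occurred in 6.02% and 14.0% of promoters.

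The labels were checked first. Adipoq, which encodes the fat cell hormone adiponectin, lay between 4846 and 21806 on every array. Xist was at least 71.5 on every female array and at most 33.3 on every male array, and the agouti gene a was at least 379 on every Ay/+ array and at most 140 on all others. Eif2s3y, on the Y chromosome, was at least 79.1 on every male array and at most 58.0 on every female one. Uty, also Y-linked, did not separate the sexes: it was 16.6 to 96.1 on male arrays, 35.1 to 38.5 on the 3 arrays of pioglitazone-treated Ay/+ females, 36.2 on replicate 4 of the untreated ob/ob females and 2.87 to 12.8 on the other female arrays. Kdm5d, the remaining Y-linked gene checked, was dim in both sexes and overlapped. The arrays came in an earlier batch of 22 and a later batch of 13, told apart by the form of the scanner record. All ob/ob males were later arrays, all drug-treated females were earlier ones, and every other group held both. Replicate 4 of the untreated ob/ob females, a later array, stood apart from the other 3: it had 11848 for Adipoq, against 4846 to 5783 on the others, and 1002 for the macrophage gene Cd68, against 3606 to 4322. Whole marker lists were mixed. Its summed macrophage markers were 24697, against 27740 to 32641 on the other 3 and 3958 to 7951 in lean females. Its summed brown fat markers were 370, against 367 to 439 on the other 3 and 3303 to 7404 in lean females. Its mean log2 of fat cell markers was 10.49, against 10.52 to 10.74 on the other 3. Its summed endothelial markers stood apart, at 8172 against 3740 to 4076. The later arrays of 2 other female groups, scanned on the same day, were also the highest of their group. Untreated Ay/+ replicate 1 had 6137, against 3034 to 3337 on its earlier arrays. Lean female replicate 4 had 7531, against 4796 to 7252. The label of replicate 4 of the untreated ob/ob females was kept, though whether it is right could not be settled from these values. Results that rest on that array are given without it as well. Replicate 3 of the pioglitazone-treated Ay/+ females had a raised floor, with a scaled signal of 24.0 at the 5th percentile of its probe sets. Replicate 1 of the pioglitazone-treated diet-induced obese males had a Gapdh 3'/5' ratio of 46.9. These 3 arrays and replicate 1 of the untreated Ay/+ females, the only later array of its group, were left out together in an alternative fit.

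Leptin mRNA was measured in every group and was lowest in lean females. Signals were scaled so that each array had a 2% trimmed mean of 250. On that scale 98443_at lay between 836 and 8576 and 98444_g_at between 186 and 4902. The group means of 98443_at spanned 7.03-fold, and those of 98444_g_at 15.1-fold, on the log2(signal + 23) scale used for every difference here. Signals of different probe sets depend on their probes, so their levels are not set against each other.

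**Figure D1:**
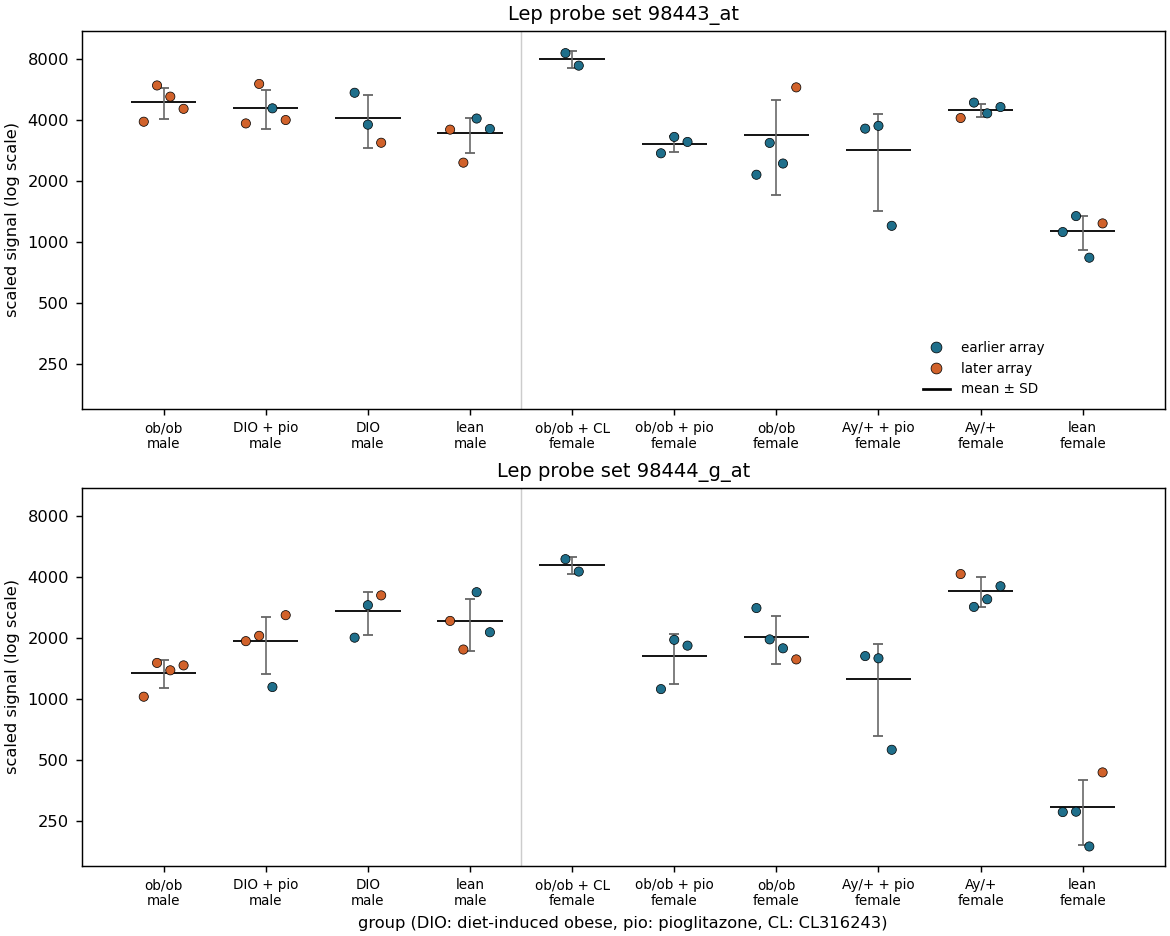
Scaled signal (log axis) of Lep on each array, with 98443_at above and 98444_g_at below. Points are arrays, coloured by batch, and bars are group means ± SD (n = 2 to 4). On both probe sets the CL316243-treated ob/ob females stand highest and the lean females lowest. The ob/ob males are second highest on 98443_at and near the low end on 98444_g_at.

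In the order of group means, both probe sets put lean females at the bottom (1133 ± 218 on 98443_at and 293 ± 102 on 98444_g_at, SD, n = 4) and CL316243-treated ob/ob females at the top (8006 ± 805 and 4579 ± 457, n = 2). The next group above the lean females was on both probe sets the pioglitazone-treated Ay/+ females, at 2860 ± 1438 and 1258 ± 605 (n = 3). That was the only step between neighbours past the threshold, with limma's adjusted p = 0.00967 for 98443_at and 9.63e-05 for 98444_g_at. The arrays of these groups overlapped on 98443_at and did not on 98444_g_at. No other step passed (adjusted p of at least 0.243), although at the top of both orders the CL316243-treated arrays did not overlap the next group, ob/ob males at 4910 ± 865 on 98443_at and untreated Ay/+ females at 3423 ± 571 on 98444_g_at (n = 4 each). Between these ends the orders were not the same. On 98443_at the means ran upward through ob/ob females with pioglitazone, untreated ob/ob females, lean males, untreated diet-induced obese males, untreated Ay/+ females, diet-induced obese males with pioglitazone and ob/ob males. On 98444_g_at they ran through ob/ob males, ob/ob females with pioglitazone, diet-induced obese males with pioglitazone, untreated ob/ob females, lean males, untreated diet-induced obese males and untreated Ay/+ females. Of the 45 pairs of groups, 14 differed on 98443_at, 9 of them pairs with lean females. On 98444_g_at 20 differed, again 9 with lean females.

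Untreated obese females of both genotypes had more leptin mRNA than lean females on both probe sets, with every untreated obese array above every lean one. The 98443_at signal was 2149, 3087, 2441 and 5808 in untreated ob/ob females, against 1119, 1342, 836 and 1235 in lean females. The highest of these is the later ob/ob array that stood apart, and the other 3 also exceeded each lean array. On 98443_at Lep rose by 1.46 on the log2 scale, or 2.75-fold (SE 0.284, limma's adjusted p = 0.00031), in a comparison in which 24.4% of all probe sets were called, 10.3% higher and 14% lower. On 98444_g_at the signal was 2810, 1967, 1777 and 1566 in ob/ob females, against 276, 277, 186 and 433 in lean females. It rose by 2.72, or 6.59-fold (SE 0.288, adjusted p = 1.80e-08). The median over all probe sets in this comparison was -0.18.

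In untreated Ay/+ females, which make working leptin, 98443_at was 4098, 4884, 4321 and 4642. These arrays lay close together and far above the lean ones. Lep rose by 1.98, or 3.95-fold (SE 0.284, limma's adjusted p = 1.05e-05), where 17.8% of probe sets were called, 6.26% higher and 11.5% lower. The 98444_g_at signal was 4139, 2846, 3106 and 3602, a rise of 3.49, or 11.2-fold (SE 0.288, adjusted p = 2.40e-10). Both comparisons share the lean females. Within the earlier batch alone the rises were 1.21 and 3.03 in ob/ob and 2.07 and 3.59 in Ay/+ females, for 98443_at and 98444_g_at in that order. Within the later batch, with 1 array a group, they were 2.21 and 1.80 in ob/ob and 1.71 and 3.19 in Ay/+ females, and the Ay/+ rise of 98443_at had an adjusted p = 0.0903.

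Set against Ay/+ females, ob/ob females were lower by 0.52 on 98443_at (95% interval -1.10 to 0.06, limma's adjusted p = 0.189) and by 0.77 on 98444_g_at (-1.35 to -0.18, adjusted p = 0.0530), and neither passed, where 21.6% of probe sets were called. Replicate 4 of the ob/ob females decided the first of these: without it 98443_at fell by 0.82 (adjusted p = 0.0253), and in the later batch, where it is the only ob/ob array, the difference was 0.50 the other way. The 98444_g_at difference without any one array lay between -0.93 and -0.66.

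In males, obesity went with no rise of leptin mRNA that passed the test, and in ob/ob males the probe sets differed from lean males in opposite directions. The 98443_at signal was 3928, 5936, 5227 and 4549 in ob/ob males, against 3590, 2466, 4074 and 3618 in lean males. Of the ob/ob arrays, 3 exceeded every lean array and the lowest lay inside the lean range. The difference was 0.52 (95% interval -0.06 to 1.10, limma's adjusted p = 0.332), where 10.6% of probe sets were called, 5.62% higher and 4.96% lower. On 98444_g_at the signal was 1024, 1505, 1383 and 1463 in ob/ob males, against 2427, 1753, 3367 and 2134 in lean males. Here every ob/ob array lay below every lean array, with a difference of -0.81 (-1.40 to -0.23, adjusted p = 0.0691). All ob/ob males were later arrays. Within that batch the differences were 0.70 and -0.63, and with batch as a block they were 0.50 and -0.93, where -0.93 had an adjusted p = 0.0347.

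Diet-induced obese males did not differ from lean males past the threshold. The 98443_at signal was 5462, 3799 and 3092 in diet-induced obese males without drug, overlapping the lean males given above. On the other probe set it was 2006, 2903 and 3246, which also overlaps them. The differences were 0.24 (95% interval -0.38 to 0.87, limma's adjusted p = 0.887) and 0.18 (-0.45 to 0.81, adjusted p = 0.931), where 1.85% of probe sets were called and 1.22% were called higher. Set against diet-induced obese males, ob/ob males differed by 0.28 on 98443_at (-0.35 to 0.90, adjusted p = 0.873) and by -0.99 on 98444_g_at (-1.62 to -0.36, adjusted p = 0.135), where 0.877% were called. The 98444_g_at difference was called with array weights (-1.06, adjusted p = 0.00785), without the 4 arrays named above (adjusted p = 0.0304) and with the compared groups only (adjusted p = 0.0491). On 98444_g_at the ob/ob and diet-induced obese males did not overlap.

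Among lean mice, males had several times more leptin mRNA than females. Every lean male array lay above every lean female array on both probe sets. Lep was higher in males by 1.58 on 98443_at, or 2.99-fold (SE 0.284, limma's adjusted p = 0.00040), and by 2.97 on 98444_g_at, or 7.81-fold (SE 0.288, adjusted p = 1.13e-08), where 15.7% of probe sets were called and 5.22% were called higher and 10.5% lower. The median over all probe sets here was -0.20. Within the earlier batch the differences were 1.81 and 3.35 and within the later batch 1.25 (adjusted p = 0.0955) and 2.19. In ob/ob mice the sexes did not differ past the threshold: 98443_at was higher in males by 0.64 (95% interval 0.06 to 1.21, adjusted p = 0.345) and 98444_g_at differed by -0.57 (-1.15 to 0.02, adjusted p = 0.436), where 1.19% were called. With array weights the 98444_g_at difference was called (-0.67, adjusted p = 0.0183). Without replicate 4 of the ob/ob females the 98443_at difference was 0.93 (adjusted p = 0.0405).

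The effect of the ob/ob genotype on leptin mRNA differed between the sexes on 98444_g_at. The difference of effects, males minus females, was -3.53 on 98444_g_at (SE 0.407, limma's adjusted p = 7.76e-07) and -0.94 on 98443_at (SE 0.401, 95% interval -1.76 to -0.13, adjusted p = 0.151), where 5.68% of probe sets were called. Within the later batch these were -2.43 and -1.51. Both parts of it hold the lean mice, whose sexes differ as given above, so that the difference of effects is also the sex difference in ob/ob mice minus that in lean mice.

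**Figure D2:**
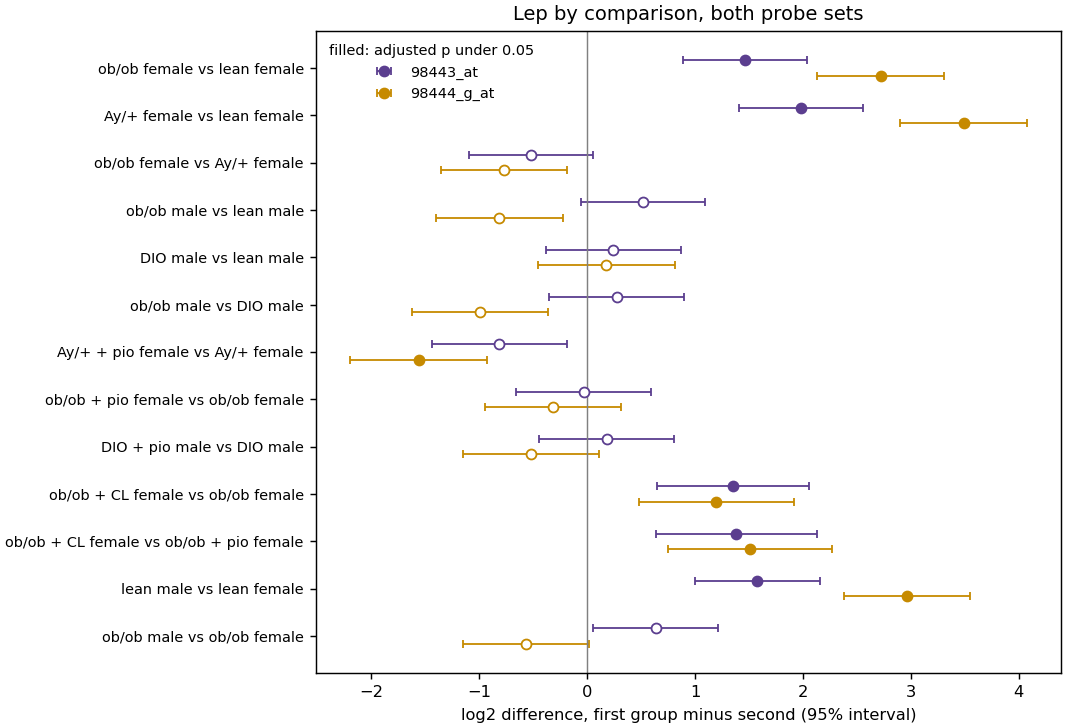
Log2 difference of Lep in each pairwise comparison, the group named first minus the group named second, for 98443_at and 98444_g_at with 95% intervals from limma. Filled points have an adjusted p under 0.05. Both probe sets are filled in both obese females against lean females, in CL316243-treated ob/ob females against either other ob/ob female group, and in lean males against lean females. They point opposite ways in all 3 comparisons of ob/ob males and in diet-induced obese males with pioglitazone.

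Pioglitazone-treated Ay/+ females had less leptin mRNA than untreated ones on 98444_g_at, and the call rested on 1 array. The 98443_at signal was 3631, 3748 and 1201 in treated Ay/+ females, all below the 4098 to 4884 of the untreated ones. The difference was -0.81 (95% interval -1.43 to -0.19, limma's adjusted p = 0.172) and did not pass. The 98444_g_at signal was 1627, 1586 and 560 in treated Ay/+ females, all below the 2846 to 4139 of the untreated ones. It fell by 1.56, to 0.339 of the untreated level (SE 0.311, adjusted p = 0.00214), where 3.03% of probe sets were called and 0.91% were called lower. Replicate 3, the array with a raised floor and no dose on its label, was the lowest on both probe sets. Without it the difference on 98444_g_at was -1.07 (adjusted p = 0.0689) and on 98443_at -0.28. The other 2 treated arrays still lay below all 4 untreated ones on both probe sets.

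In the other obese models no change with pioglitazone passed the test. The 98443_at signal was 2743, 3304 and 3121 in treated ob/ob females, inside the range of the untreated ones. The 98444_g_at signal was 1117, 1957 and 1832 there. The differences were -0.03 (95% interval -0.66 to 0.59) and -0.31 (-0.95 to 0.32), both with limma's adjusted p = 0.999, where 1.06% of probe sets were called. In diet-induced obese males 98443_at was 3853, 6039, 4576 and 4005 with pioglitazone, overlapping the untreated ones, with a difference of 0.18 (-0.44 to 0.81, adjusted p = 0.920). The 98444_g_at signal was 1928, 2048, 1143 and 2591, with a difference of -0.52 (-1.15 to 0.11, adjusted p = 0.622), where 1.42% were called. The drug's effect was not shown to differ between models. In Ay/+ minus ob/ob females the difference of effects was -0.78 on 98443_at and -1.25 on 98444_g_at (adjusted p = 0.982 and 0.890), where 0.0242% were called. In diet-induced obese males minus Ay/+ females it was 0.99 and 1.04 (adjusted p = 0.596 and 0.578), and minus ob/ob females 0.21 and -0.21 (adjusted p = 0.995 for both), where 0% and 0.00805% were called.

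CL316243-treated ob/ob females had the highest leptin signals of the series. The 98443_at signal was 8576 and 7437, above every other array of the series, against 2149 to 5808 in untreated ob/ob females. The 98444_g_at signal was 4902 and 4256, also above every other array, against 1566 to 2810. Lep rose by 1.35 on 98443_at, or 2.55-fold (SE 0.348, limma's adjusted p = 0.0266), and by 1.20 on 98444_g_at, or 2.29-fold (SE 0.353, adjusted p = 0.0491), where 3.74% of probe sets were called and 1.55% were called higher. Against pioglitazone-treated ob/ob females, which got another dose of another drug for the same time, the differences were 1.38 (SE 0.367, adjusted p = 0.0157) and 1.51 (SE 0.372, adjusted p = 0.00907), where 7.58% were called and 2.91% were called higher. The CL316243 arrays were scanned together on 1 day and the pioglitazone-treated ob/ob arrays on another. Replicates 1 to 3 of the untreated ob/ob females were scanned on a further day. No other array shared these days. Drug and scan day cannot be told apart between the 2 treated groups, and hardly against the untreated one.

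With 2 treated arrays these calls depended on single arrays. Where 1 CL316243 array was left out, the other was taken to vary as the other groups do. Against untreated ob/ob females the 98443_at rise lay between 1.17 and 1.65 when single arrays were left out, and its adjusted p was 0.0619 to 0.261 without replicate 1, 2 or 3 of the untreated or either treated array. Against pioglitazone it lay between 1.28 and 1.49, with an adjusted p of 0.0591 to 0.166 without replicate 1 of the pioglitazone group or either CL316243 array. On 98444_g_at the rise against untreated ob/ob females lay between 1.08 and 1.36 and was not called without any one of these 6 arrays (adjusted p of 0.0527 to 0.360). The 98444_g_at rise against pioglitazone lay between 1.26 and 1.66, and was not called without the same 3 arrays as on 98443_at (adjusted p of 0.0656 to 0.122). Quantile normalization gave 0.83 (adjusted p = 0.0969) and 0.68 (adjusted p = 0.166) on 98443_at.

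The probe sets were then compared within arrays, as log2(signal + 23) of 98443_at minus that of 98444_g_at. The added constant lowers this difference slightly where 98444_g_at is dim, as in lean females. It was high in ob/ob males (1.85 ± 0.15, SD, n = 4) and lean females (1.91 ± 0.31, n = 4), and low in lean males (0.52 ± 0.20, n = 4) and untreated Ay/+ females (0.40 ± 0.33, n = 4). The other groups averaged between 0.58 and 1.29. In untreated ob/ob females it was -0.38, 0.64 and 0.45 on the earlier arrays and 1.88 on the later one.

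By a two-sided exact permutation test over arrays, the difference was higher in ob/ob than in lean males by 1.33, lower in Ay/+ than in lean females by 1.51, and lower in lean males than in lean females by 1.39. Each had an exact p = 0.0286, the smallest that 4 arrays against 4 can give, and the groups did not overlap. After adjustment over the 13 comparisons the exact p was 0.106, so none passed. At these group sizes no adjusted exact p could fall under 0.05, so this does not show that the probe sets respond alike. In ob/ob against lean females it was lower by 1.26, with an exact p = 0.0571 and overlapping groups. Within batches the ob/ob against lean male value was 1.33 on the later arrays. The Ay/+ against lean female value was -1.52 on the earlier and -1.48 on the later arrays, and that of lean males against lean females -1.54 and -0.94. The ob/ob against lean female value changed sign between batches, at -1.82 on the earlier arrays and 0.41 on the later ones, where each group has 1 array. Between ob/ob males and ob/ob females it was 1.20 over all arrays (exact p = 0.0571) and -0.03 on the later ones.

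**Figure D3:**
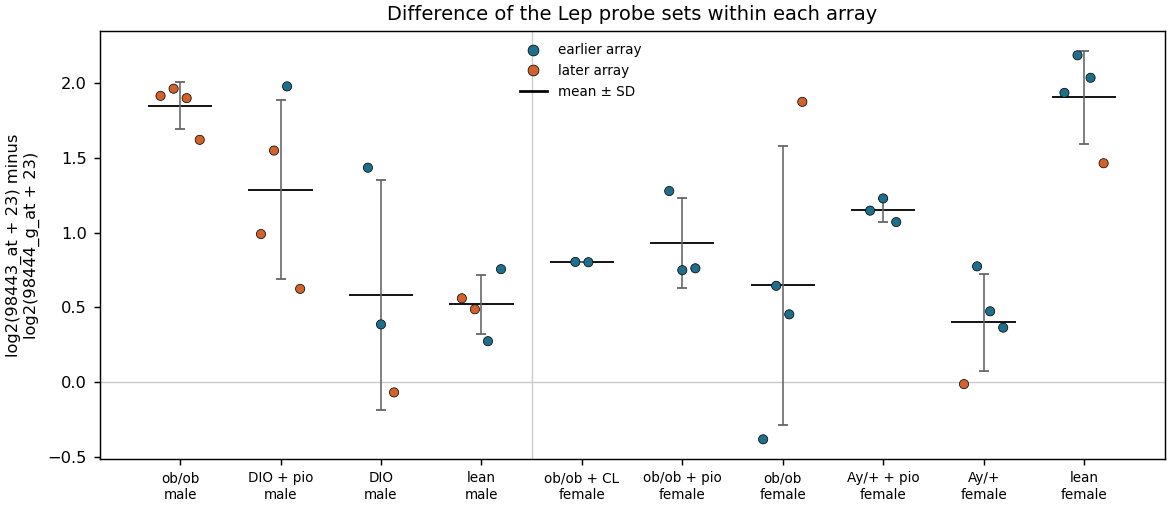
Log2(signal + 23) of 98443_at minus that of 98444_g_at on each array, by group. Points are arrays, coloured by batch, and bars are means ± SD (n = 2 to 4). The ob/ob males (mean 1.85) and lean females (1.91) lie above the lean males (0.52) and untreated Ay/+ females (0.40), and the 1 later array of the untreated ob/ob females lies at 1.88, above the other 3.

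Across arrays the signals of the probe sets were correlated in females, and no such relation passed in males. Lean females form a cluster of their own on both probe sets, so the relation was also computed without them, a choice made after their values were seen. In the 16 female arrays other than lean, Pearson's r was 0.753 (permutation p = 0.00099, adjusted over 8 relations 0.00198) and Spearman's rho 0.600 (p = 0.0161, adjusted 0.0321). Without the 2 arrays farthest from the median of 98443_at r was 0.460, so that the size of this relation rests on those 2 arrays. In the 15 male arrays r was -0.310 (p = 0.260, adjusted 0.260) and rho -0.361 (p = 0.187, adjusted 0.214), and without the 2 farthest arrays r was -0.525. In the 22 earlier arrays r was 0.884 (p = 1e-05, the smallest these permutations can give, adjusted 2.67e-05), and in the 13 later arrays 0.457 (p = 0.121, adjusted 0.138), where rho was -0.022. Of the later arrays 10 are male, so batch and sex largely coincide there. For deviations from group means over all 35 arrays, r was 0.350 (permutation p = 0.0403, adjusted 0.0537).

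RNA quality was set beside these values through the 3'/5' signal ratios of Gapdh and Actb, as deviations from group means over 35 arrays. None of 6 relations with either Lep probe set or their difference passed (permutation p of Spearman's rho adjusted over the 6 at least 0.194). The strongest, 98444_g_at with the Actb ratio, had r = 0.296 (p = 0.0847, adjusted 0.332) and rho = 0.365 (p = 0.0324, adjusted 0.194). Deviations from group means leave out what differs between groups. The Gapdh ratio was 0.708 to 1.85 in untreated ob/ob females and 0.741 to 1.02 in untreated Ay/+ females, against 1.31 to 2.51 in lean females, so that Ay/+ and lean females did not overlap on it. It was 0.801 to 1.06 in ob/ob males, against 1.01 to 1.79 in lean males. In ob/ob females it was 0.998 to 1.11 with CL316243 and 0.743 to 0.857 with pioglitazone. The Actb ratio was 1.52 to 1.53 with CL316243, against 0.105 to 0.558 with pioglitazone. In untreated ob/ob females it was 0.156 to 0.648 on replicates 1 to 3 and 2.00 on replicate 4. The CL316243 and pioglitazone arrays thus did not overlap on either ratio. The part of RNA quality in the Lep differences between groups was not tested. Where on the transcript each probe set lies was not analysed here.

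Leptin mRNA was also set against fat cell markers. The measure was log2(signal + 23) of 98443_at minus the mean of the same for the 14 measured of 20 fat cell markers. It is not Lep per fat cell, because fewer fat cells and less marker RNA per fat cell cannot be told apart. On this measure no comparison passed the exact permutation test after adjustment over the 13 tested, but at these group sizes none could have passed. The lack of a call therefore does not show that Lep was unchanged relative to the markers. In ob/ob males the markers were low, at 9.90 ± 0.19 against 11.07 ± 0.13 in lean males (mean log2, SD, n = 4 each), and 9 of 14 were called lower and none higher (4.96% and 5.62% over all probe sets), with a median of -1.15 against 0.06 for all probe sets. Lep minus the markers was 2.35 ± 0.12 in ob/ob males and 0.67 ± 0.30 in lean males, a difference of 1.69. In untreated ob/ob females, where 5 markers were called lower and 3 higher (14% and 10.3% over all probe sets), it was 1.02 ± 0.73, against -0.84 ± 0.29 in lean females, a difference of 1.86. In untreated Ay/+ females, where 2 markers were called higher and none lower (6.26% and 11.5% over all), it was 0.79 ± 0.11, a difference of 1.63.

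In each of these the groups did not overlap, as in lean males against lean females (1.50) and ob/ob males against ob/ob females (1.33, but 0.33 within the later batch and 0.13 on 98444_g_at). Each of the 5 had an exact p = 0.0286, the smallest possible for 4 against 4 arrays, and 0.0743 after adjustment over the 13 comparisons. Groups also did not overlap in treated against untreated Ay/+ females (-1.03), ob/ob against diet-induced obese males (1.29, but 0.02 on 98444_g_at) and CL316243 against pioglitazone in ob/ob females (1.19), with an exact p = 0.0571, 0.0571 and 0.200, each the smallest its arrays allow. On 98444_g_at relative to the markers the differences were 0.35 in ob/ob against lean males (exact p = 0.0571, adjusted 0.124) and 3.11 and 3.14 in ob/ob and Ay/+ females against lean females (exact p = 0.0286, adjusted 0.124 for both). Macrophage markers moved in these comparisons too. Of 16 measured, 14 were called higher in ob/ob against lean males (5.62% over all probe sets), 12 in ob/ob (10.3%) and 9 in Ay/+ (6.26%) against lean females, 9 in diet-induced obese against lean males (1.22%) and 8 in lean males against lean females (5.22%), and none was called lower in these 5. Their summed signal ran from 34867 to 49235 in ob/ob males, against 8417 to 10217 in lean males. It ran from 24697 to 32641 in ob/ob and from 9239 to 17215 in Ay/+ females, against 3958 to 7951 in lean females. Some markers of brown fat and of skeletal muscle fell in each of these groups set against lean females. Of 7 measured brown fat markers 5 were called lower in ob/ob females (14% over all probe sets), 4 in Ay/+ females (11.5%) and 5 in lean males (10.5%). Their summed signal ran from 367 to 439 in ob/ob females, from 704 to 1772 in Ay/+ females and from 574 to 1044 in lean males, against 3303 to 7404 in lean females. Of 11 skeletal muscle markers 7, 3 and 9 were called lower in the same comparisons. The summed muscle signal overlapped between lean females (2643 to 8060) and both ob/ob (2121 to 6053) and Ay/+ females (2414 to 3804). In lean males it was lower, at 1052 to 1253. With pioglitazone 4 of the 7 brown fat markers were called higher in Ay/+ females (2.13% over all), in ob/ob females (0.733%) and in diet-induced obese males (0.757%). The part of these markers in the Lep values was not tested.

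**Figure D4:**
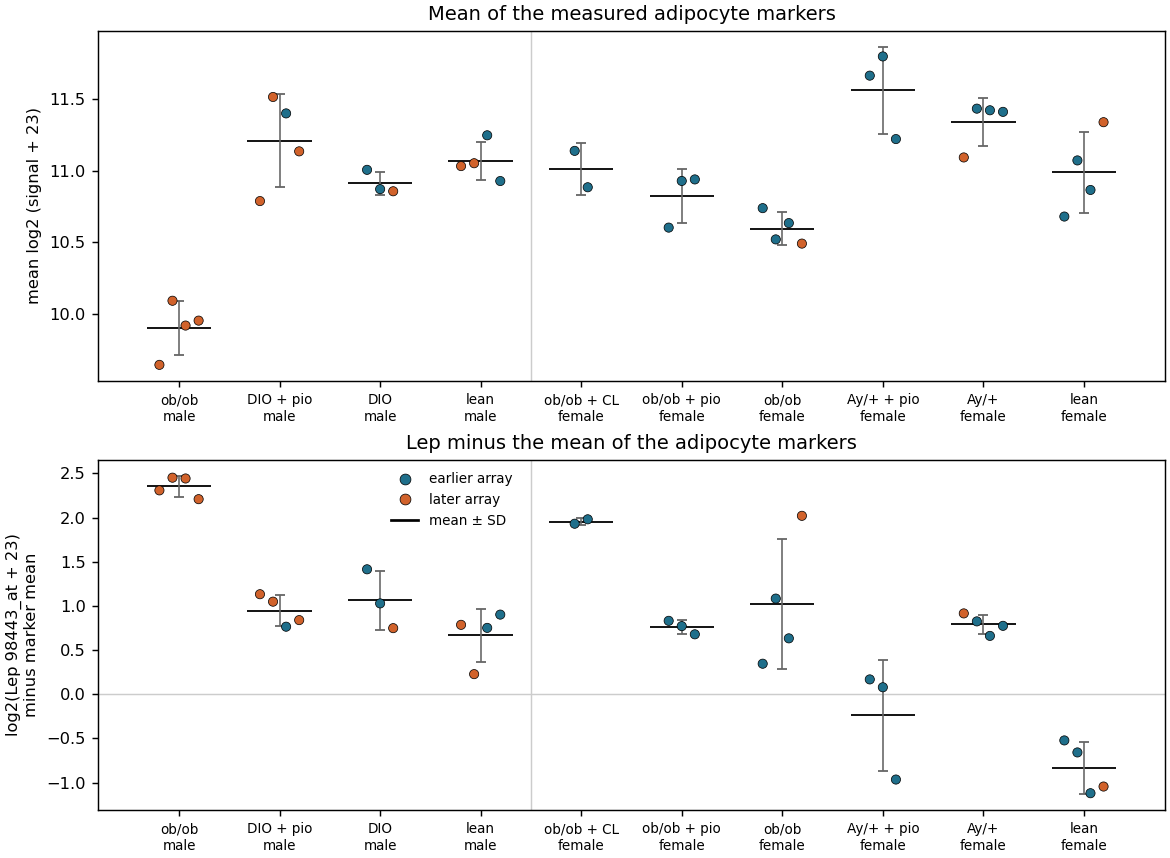
Mean log2(signal + 23) of the 14 measured fat cell markers (above) and log2(signal + 23) of 98443_at minus that mean (below) on each array. Points are arrays, coloured by batch, and bars are means ± SD (n = 2 to 4). The ob/ob males have the lowest marker means (9.90) and the highest Lep relative to them (2.35), and the lean females have the lowest Lep relative to the markers (-0.84).

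Genes of the leptin receptor pathway changed in both directions and mostly not at all past the threshold. Of 28 listed, 22 were measured, and the shares called over all probe sets stand in brackets. In ob/ob against lean females 5 were called higher and 4 lower (10.3% and 14%), with a median of -0.17, against -0.18 over all probe sets. In Ay/+ against lean females 1 was called higher and 3 lower (6.26% and 11.5%, median -0.30, against -0.06). In ob/ob against lean males 4 were called higher and 2 lower (5.62% and 4.96%, median -0.05, against 0.06). In diet-induced obese against lean males none was called (1.85%, median 0.03, against 0.03). Lepr itself, the receptor, was near the background in this fat. Its group means ran from 7.9 to 55.0 on 100430_at and from 1.7 to 31.1 on 100431_at, at or near the added constant of 23, and no comparison called it on 100430_at. Jak2, the kinase bound to the receptor, fell in Ay/+ against lean females (by 0.86, limma's adjusted p = 0.0201) and was called in no other comparison. Stat3, which carries the receptor's signal to the nucleus, was called in none.

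Akt2, a kinase downstream of insulin and leptin receptors, was called in 7 comparisons, more than any other listed gene. Its mean signal was 375 ± 83 in ob/ob males, against 1245 ± 151 in lean males (SD, n = 4 each), a fall of 1.68 (limma's adjusted p = 1.10e-07), and no array overlapped. In females the direction was the opposite: Akt2 was 675 ± 193 in ob/ob and 839 ± 45 in Ay/+ females, against 440 ± 61 in lean females, and rose by 0.55 (adjusted p = 0.0384) and 0.91 (adjusted p = 0.00161). Lean males were above lean females by 1.46 (adjusted p = 7.22e-06). The receptor-pathway genes Leprot, which limits surface display of the receptor, and Ptpn1, a phosphatase that dampens its signal, rose in ob/ob against lean mice of both sexes. Leprot rose by 1.13 in males and 0.78 in females, and Ptpn1 by 1.12 and 0.81 (adjusted p from 0.0040 to 0.039). Irs1, an adaptor of the insulin receptor, fell in ob/ob (by 1.28) and Ay/+ (by 1.38) against lean females, which had the highest group mean, 82.4. Socs3, a feedback inhibitor, has 2 probe sets that gave different calls. On 162206_f_at it fell in Ay/+ against lean females (by 0.86, adjusted p = 0.0373), and on 92232_at it rose in ob/ob against lean mice, by 0.94 in females (adjusted p = 0.0357) and 1.47 in males (adjusted p = 0.00202). Akt1, a relative of Akt2, rose by 0.93 in ob/ob against lean females and by 0.81 in ob/ob against lean males.

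Stat5a, another transcription factor of the pathway, was lower in ob/ob against lean mice of both sexes, by 0.93 in females and 0.78 in males. With CL316243 it rose by 1.09 against untreated ob/ob females on 100422_i_at (limma's adjusted p = 0.0133), to 1138 ± 106 (SD, n = 2), against 537 ± 172 (n = 4). Its other probe set, 100423_f_at, was lower in ob/ob against lean mice as well and was not called with CL316243 against untreated ob/ob females, where it averaged 571 ± 48, against 360 ± 90.

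Of 20 listed regulators of the Lep gene 15 were measured, and the beta adrenergic receptors through which CL316243 acts were not analysed here. In ob/ob against lean females 3 were called higher and 2 lower (10.3% and 14% over all probe sets), with a median of 0.04, against -0.18 over all. In Ay/+ against lean females none was called higher and 3 lower (6.26% and 11.5% over all, median -0.04, against -0.06). In ob/ob against lean males none was called higher and 3 lower (5.62% and 4.96% over all, median 0.01, against 0.06). Srebf1, a transcription factor of fatty acid synthesis known to respond to insulin, was lower in all 4 obese groups against their lean controls. Its mean signal was 915 ± 186 in ob/ob males and 1520 ± 257 in diet-induced obese males, against 3236 ± 543 in lean males (SD, n = 4, 3 and 4). It was 1209 ± 194 in ob/ob and 1369 ± 124 in Ay/+ females, against 2395 ± 609 in lean females (n = 4 each). It fell by 1.80 in ob/ob males, 1.08 in diet-induced obese males, 0.95 in ob/ob females and 0.77 in Ay/+ females (limma's adjusted p from 1.4e-07 to 0.011), whereas Lep rose past the threshold in the females alone. With pioglitazone in Ay/+ females Srebf1 rose by 0.94 (adjusted p = 0.0163), the comparison in which Lep fell on 98444_g_at.

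Pparg, the receptor of pioglitazone, fell by 1.21 in ob/ob males and by 0.99 in diet-induced obese males (limma's adjusted p = 0.00023 and 0.0232) and differed by 0.00 in ob/ob and by -0.10 in Ay/+ females. No comparison of pioglitazone with its untreated group called it. The C/EBP factors, for which the palindrome above is a known type of site, split by member. Cebpa, the form of mature fat cells, fell in ob/ob males by 0.90 (adjusted p = 0.0055) and was called in no other comparison. Cebpb and Cebpd, early factors of fat cell differentiation, rose in ob/ob against lean females by 0.98 and 1.36 (adjusted p = 0.0088 and 5.6e-05). With CL316243 Cebpd fell by 1.36 against untreated ob/ob females (adjusted p = 0.0066). Insr, the insulin receptor, was dim, with group means of at most 43.0, and was called in none.

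Genes whose pattern was most like that of Lep were ranked by Pearson's r with 98443_at over the 10 group means of log2 signal, among 5100 probe sets with 1 gene symbol, a group mean of at least 4 times 23 and a range of group means of at least 1. The points share arrays and scaling, and r is a description. The 6 most like it were Mfge8 (r = 0.955), a secreted bridge between dying cells and phagocytes, C1qc (0.929), a complement chain made by macrophages, Tomm34 (0.929), a cofactor of mitochondrial import, Pea15a (0.908), a phosphoprotein of cell death signalling, Cdkn2d (0.901), an inhibitor of cyclin-dependent kinases, and Sparc (0.896), a matrix protein. All 6 were lowest in lean females and highest in CL316243-treated ob/ob females. Mfge8 averaged 9733 ± 951 (SD, n = 2) with CL316243, against 3669 ± 990 in untreated ob/ob females and 1688 ± 114 in lean females (n = 4 each). For comparison, the r of the 2 Lep probe sets with each other over the same group means was 0.891. The 6 genes were picked as the highest of 5100 probe sets, so their higher r does not rank them above the other Lep probe set.

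The most opposite were Krt7 (r = -0.958), a keratin of epithelia, Tarbp2 (-0.957), a partner of the enzyme Dicer, Nfyc (-0.929), a subunit of the CCAAT-binding factor NF-Y, and C1qtnf3 (-0.924), a secreted relative of adiponectin. Each was highest in lean females and lowest in CL316243-treated ob/ob females by group mean. With CL316243 Krt7 and C1qtnf3 averaged 9.6 and 12.0, below the added constant of 23. Tarbp2 was 133 ± 134 there (SD, n = 2), against 143 ± 35 in untreated Ay/+ females (n = 4). Krt7 also varied widely in lean females, at 444 ± 426 (n = 4). These lists depended on the probe set and on normalization. Ranked against 98444_g_at, 1 of the 6 (Sparc) and 2 of the 4 (Nfyc and C1qtnf3) were again among the nearest, and after quantile normalization 4 of the 6 and 0 of the 4. Over deviations from group means on the 35 arrays the nearest to 98443_at were H2-K2 (r = 0.834), H2-K1 (0.811), Eef1a1 (0.811) and Prdx2 (0.806), of which none was among the nearest to 98444_g_at. H2-K1 and H2-K2 are near-identical class I histocompatibility genes whose probe sets may cross-react.

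**Figure D5:**
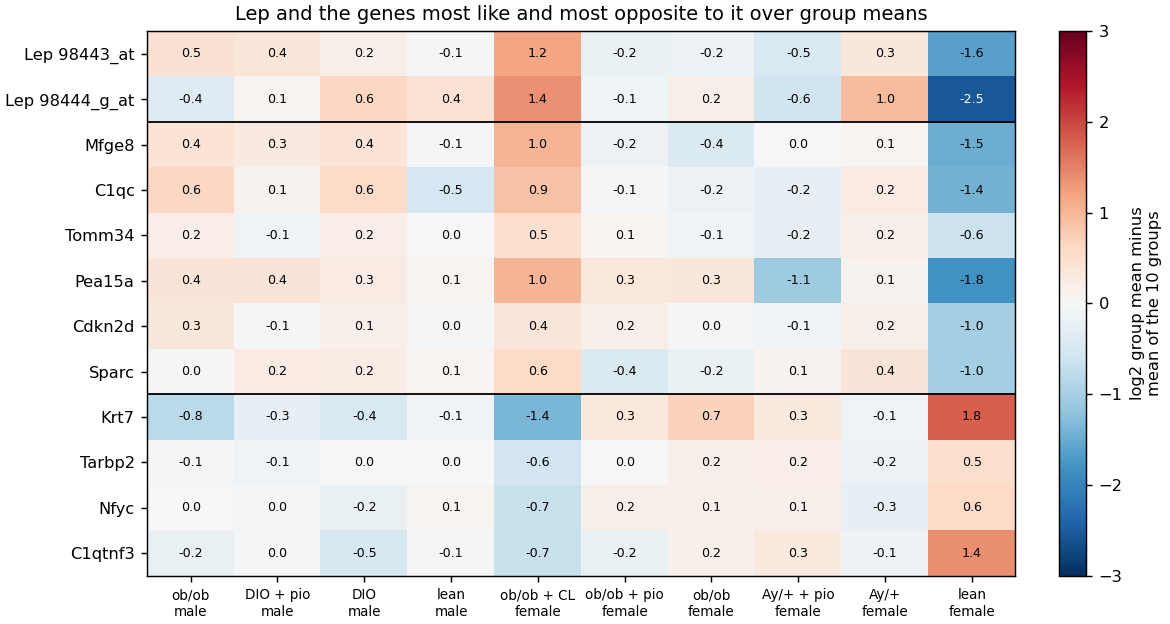
Log2 group means, each minus the mean of the 10 groups, for both Lep probe sets, the 6 genes most like 98443_at and the 4 most opposite to it. Red is higher and blue lower. The lean female column is the lowest for the Lep probe sets and the 6 genes and the highest for the 4 opposite ones, and the CL316243 column is the reverse.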

How the data were processed

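RNA of 35 samples was measured on 1 array each. The deposited values are linear signal intensities for each probe set, made by the authors with MAS5, per the submitters' processing notes. The scaling target and detection calls are not given in the sources used here. They ran from 0.0125 to 39602. On the 13 later arrays the deposited 2% trimmed mean was about 250, and on the 22 earlier ones 336 to 1679, so every array was rescaled to 250. A deposited scanner record of each array, used only for batch and scan day (13 days), holds settings and no expression values.

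Of 12488 probe sets 66 controls were left out. A pseudocount of 23, the 25th percentile of scaled signals, was added before log2, which understates changes of dim genes. Means of the 10 groups were fitted to the 35 arrays together with limma 3.58.1 (R 4.3.3; lmFit, eBayes with trend). p was adjusted by Benjamini-Hochberg over all 12422 probe sets, with a call at an adjusted p under 0.05. The script was tested on simulated data. Exact permutation tests, and 100000 permutations for correlations, used scipy 1.17.1. 98443_at, the brighter Lep probe set, was taken first. The members and the gene lists were chosen with earlier results of these data known. Genes were named by a rule: for the lists, Lepr, Insr, Cebpa, Pparg, Srebf1, Socs3, Stat3 and Jak2 always, and up to 6 others called in most comparisons. Genes tied at 3 comparisons exceeded these places and were all kept. For likeness, the 6 highest, the 4 lowest and the 4 nearest by deviations were named. Gene names came from the platform annotation. The number of arrays limits the precision. Alternatives were other normalizations, pseudocounts, filters, weights, blocks, batches and left-out arrays.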

Additional observations from a re-analysis of the deposited data

Results flagged for a closer look

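The effect of the ob/ob genotype on 98444_g_at differed between the sexes. The difference of effects, males (ob/ob minus lean) minus females (ob/ob minus lean), was -3.53 on the log2 scale, with limma's adjusted p = 7.76e-07. Its male part was -0.81 and its female part 2.72. On 98443_at the same difference was -0.94 (adjusted p = 0.151), with a male part of 0.52 and a female part of 1.46. On 98444_g_at it lay between -3.73 and -3.35 when single arrays were left out, and at -2.43 (adjusted p = 0.0166) within the later batch, where ob/ob and lean females have 1 array each. All 4 ob/ob males were later arrays, and 3 of 4 arrays in both female groups were earlier, so within the earlier batch it could not be computed. In 24 groups of 4 arrays, over both probe sets, their difference and Lep relative to the fat cell markers, no single array stood apart by Dixon's test. With 4 arrays that test can flag only a very large gap, so it does not show that no array drove a result. Smaller groups, among them the pioglitazone-treated Ay/+ females, were not tested this way.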

How the results depend on the processing

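On both probe sets ob/ob females against lean females kept their direction and their call under all alternatives run, between 1.16 and 2.21 on 98443_at and between 1.80 and 3.03 on 98444_g_at. Ay/+ females and lean males against lean females did so on 98444_g_at, and on 98443_at except within the later arrays, which gave 1.71 (adjusted p = 0.0903) and 1.25 (0.0955). CL316243 against untreated ob/ob females was no longer called on 98443_at under quantile normalization (0.83), scan day as a random block (1.27) and the compared groups only (1.35, adjusted p = 0.182), and ranged from 1.17 to 1.65 without single arrays. Against pioglitazone it was lost under quantile normalization (0.68) and scan day (1.38, adjusted p = 0.0542), and ranged from 1.28 to 1.49. ob/ob minus Ay/+ females became a call with array weights (-0.85), in the earlier arrays (-0.86) and without the 4 doubted arrays (-0.86), was 0.50 in the later arrays, and ranged from -0.82 to -0.34. ob/ob minus lean males was called with array weights (0.57). ob/ob males minus females was called with array weights (0.96) and without the doubted arrays (0.93), was -0.26 in the later arrays, and ranged from 0.46 to 0.93. Pioglitazone in ob/ob females, at -0.03, turned to 0.15 with quantile normalization, 0.07 with scaling to one median, 0.30 with array weights, 0.27 in the earlier arrays and without the doubted arrays, and ranged from -0.21 to 0.27. Replicate numbers did not pair the samples: deviations of same-numbered arrays of different groups correlated with a median r of 0.0006 over 141 pairs, against 0.0015 over 408 pairs of different numbers. With the replicate block this value was 0.02, and the one call lost was CL316243 against untreated ob/ob females on 98444_g_at (1.18, adjusted p = 0.0620). That borderline call was also lost under quantile normalization (0.87), scaling to one median (1.29), a pseudocount of 1 (1.21), no variance trend (1.20), scan day as a random block (1.28) and the compared groups only (1.20), with an adjusted p from 0.0550 to 0.182, and CL316243 against pioglitazone on 98444_g_at was lost with scan day (1.51, adjusted p = 0.0542). The pioglitazone effect in diet-induced obese males minus that in ob/ob females turned to -0.26 in the earlier arrays and -0.01 without the doubted arrays, and ranged from -0.08 to 0.44 (98444_g_at -0.46 to 0.02). In diet-induced obese males the pioglitazone effect ranged from 0 to 0.40. Relative to the fat cell markers it was -0.12 with all of them. It was 0.02 without Fabp4, Lpl, Cd36, Aqp7, Pck1, Cidec and Adipoq, left out as PPAR gamma targets. The markers kept need not be free of such targets. On 98444_g_at diet-induced obese minus lean males was -0.15 in the earlier arrays. ob/ob minus lean males on 98444_g_at was called with array weights, batch as a block, bright probe sets only, the compared groups only and without the doubted arrays (adjusted p from 0.0144 to 0.0445) and without lean male replicate 2 (-0.95, adjusted p = 0.0494). Also on 98444_g_at, ob/ob minus Ay/+ females was called with bright probe sets only (adjusted p = 0.0387), batch as a block (0.0460) and without ob/ob replicate 1 (0.0377), ob/ob minus diet-induced obese males with array weights (0.00785), without the doubted arrays (0.0304) and with the compared groups only (0.0491), and ob/ob males minus ob/ob females with array weights (0.0183). The pioglitazone fall there in Ay/+ females was lost with the compared groups only (-1.56, adjusted p = 0.0505) and without the doubted arrays (-0.97). The count of called probe sets moved by over 1.5 times in 78 of 210 pairs of a setting and a comparison: from 517 to 5630 around 3025 in ob/ob and 162 to 4102 around 2207 in Ay/+ against lean females, 395 to 3593 around 1948 in lean males against lean females, 1076 to 2554 around 1314 in ob/ob against lean males, 90 to 1221 around 377 with pioglitazone in Ay/+ females and 20 to 3186 around 464 with CL316243 against untreated ob/ob females. The causes were not tested.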
